A study of Mus musculus with 4 samples.

Results

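The Mir290 to Mir295 cluster is a set of 7 microRNA hairpin genes on mouse chromosome 7, and its rows were read from RNA-seq of early blastocysts made by somatic cell nuclear transfer (SCNT) or by in vitro fertilization (IVF). The members were the rows named Mir290, Mir291a, Mir291b, Mir292, Mir293, Mir294 and Mir295, 7 of the 23235 gene rows in each library, and all 7 were found. Both groups had 2 libraries of 6 pooled embryos each, lysed 96 hours after activation or fertilization. The SCNT embryos were made from mouse embryonic fibroblasts heterozygous for an Xist knockout, the offspring of 129S1/SvImj mothers and CAST/EiJ fathers, placed in oocytes of B6D2F1/J (BDF1) females. The IVF embryos were made from Xist KO oocytes of 129S1/Svj background and wild-type CAST/EiJ sperm. Xist, the long RNA that silences an X chromosome, is thus knocked out on the maternal allele in the IVF embryos and on 1 allele of the donor cells. The headers of both SCNT columns also carry the name kdm4d, that of a gene for a histone demethylase; the labels are silent on it, and treatment of these embryos with it is not stated. The title of the series concerns imprinting by the histone mark H3K27me3 in SCNT embryos, and the labels do not name the microRNA cluster.

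The cluster is known as a main source of microRNAs in mouse embryonic stem cells and in the early embryo. It is transcribed as a long primary RNA, from which Drosha and its partner Dgcr8 cut the hairpins in the nucleus. Dicer1 then cuts out the mature microRNAs, and Argonaute proteins use them to repress messenger RNAs with a site complementary to the seed, bases 2 to 8 of the microRNA. In embryonic stem cells its products are known for letting cells pass quickly from G1 into S phase by repressing inhibitors such as Cdkn1a. Humans carry a related cluster that includes MIR371A.

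The mature microRNAs of the 3′ arm are shown because all of them but miR-293-3p carry AAGUGC, the core of the seed by which the cluster is known. The capitals mark bases 2 to 8. The sequences are from RefSeq on GRCm38.p6, read 5′ to 3′ from the plus strand of chromosome 7. All 7 members matched at least 1 of the 13 mature sequences, and miR-292a-3p is named only.
miR-290a-3p: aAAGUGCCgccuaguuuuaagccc
miR-291a-3p: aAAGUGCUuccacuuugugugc
miR-291b-3p: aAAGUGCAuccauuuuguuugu
miR-293-3p: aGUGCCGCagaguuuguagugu
miR-294-3p: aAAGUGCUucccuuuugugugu
miR-295-3p: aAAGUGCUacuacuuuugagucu
Mir291a, Mir294 and Mir295 share the seed AAGUGCU, which miR-302b-3p and miR-302d-3p of another pluripotency cluster also had among the 1679 mature microRNAs of the table. The 3′ arms of Mir290 and Mir291b have the related seeds AAGUGCC and AAGUGCA, and that of Mir293 has the seed GUGCCGC. On the 5′ arm, Mir290, Mir292 and Mir293 share the seed CUCAAAC, and Mir291a and Mir291b share AUCAAAG.

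The hairpins of the 3 members that reached 1 FPKM in any library are shown because the values compared are listed under their gene names. Such a value is not a measure of the cut hairpin. The capitals mark the mature arms. FPKM is the number of sequenced fragments per kilobase of transcript, scaled by the mapped total of the library, a unit inferred for these files.
Mir290: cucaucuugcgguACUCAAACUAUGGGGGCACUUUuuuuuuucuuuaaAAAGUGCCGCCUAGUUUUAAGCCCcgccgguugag
Mir294: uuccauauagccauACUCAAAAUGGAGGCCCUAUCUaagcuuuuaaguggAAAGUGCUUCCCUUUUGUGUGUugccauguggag
Mir295: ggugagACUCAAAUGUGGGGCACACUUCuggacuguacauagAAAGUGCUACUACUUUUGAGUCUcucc
These hairpins have 83, 84 and 69 bases. Among the 6 hairpins with a sequence in the table, which leave out Mir291a, the 15 pairs were 51.1% to 71.4% identical, and the longest run of bases that any pair shared was 12. Among the mature sequences, miR-291a-5p and miR-291b-5p shared a run of 20 bases. On the plus strand of GRCm38.p6, Mir290 lies at chr7:3218626-3218708, Mir294 at chr7:3220641-3220724 and Mir295 at chr7:3220773-3220841.

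The cluster spans 2216 bases on GRCm38.p6, in the order Mir290, Mir291a, Mir292, Mir291b, Mir293, Mir294 and Mir295. A long non-coding RNA, D7Ertd143e, covers 6 of the 7 hairpins over 2232 bases on the same strand, and is called the host transcript here. Mir290 lies outside it, with 75 bases between the end of the hairpin and the annotated start of D7Ertd143e. The promoter window around that start is shown because it holds the whole Mir290 hairpin, in capitals (chr7:3218534-3218833, plus strand, GRCm38.p6, RefSeq).
D7Ertd143e start: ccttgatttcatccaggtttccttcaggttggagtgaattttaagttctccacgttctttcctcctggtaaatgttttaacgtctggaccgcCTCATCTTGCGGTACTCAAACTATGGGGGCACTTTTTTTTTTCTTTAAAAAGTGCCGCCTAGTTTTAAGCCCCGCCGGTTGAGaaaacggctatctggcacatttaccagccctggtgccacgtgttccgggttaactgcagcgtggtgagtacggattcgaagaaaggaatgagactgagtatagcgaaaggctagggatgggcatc
On either strand the window held the E-box CACGTG, found in 7.15% of 32851 such windows, and held neither the octamer ATGCAAAT (1.74% of windows) nor TATAAA (13.6%); a match in letters is a description, not a site of binding. The gene Nlrp12, an innate immune sensor gene transcribed from the opposite strand, overlaps all 7 hairpins in the same reference. The sources used here do not say whether the counting used strand, and without strand reads of Nlrp12 and of the cluster cannot be told apart.

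**Figure D1:**
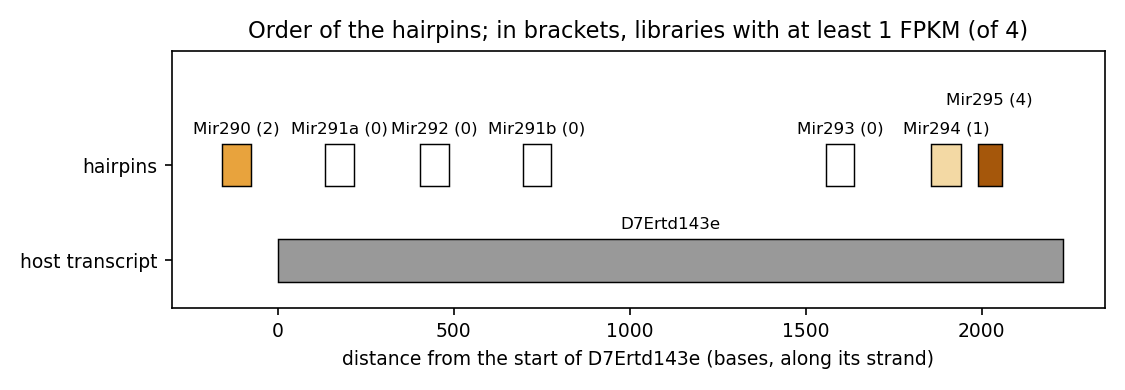
Positions of the 7 hairpins and of the host transcript D7Ertd143e, in bases from the start of D7Ertd143e along its strand; the number in brackets and the depth of colour give the libraries, of 4, in which the row had at least 1 FPKM. Mir290, before the start, reached 1 FPKM in 2 libraries, Mir294 in 1, Mir295 in 4, and the 4 hairpins between Mir290 and Mir294 in 0.

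Summed FPKM per library lay between 933167 and 985197, and the number of fragments behind the values is unknown. Nothing in the labels ties the 2 libraries of a group to different parents or dates, so the p-values cover just the spread among these libraries, and that spread may be technical. The cDNA was made with a SMARTer Ultra Low Input kit. Kits of that type prime cDNA from poly(A) tails, which mature microRNAs lack, and the values are described here as those of hairpin genes, not of mature microRNAs. Markers of blastocyst cell types were present, with a summed level of 6004 and 3934 FPKM in SCNT and 4401 and 3604 FPKM in IVF for 8 trophectoderm genes, and 345.9 and 377.1 FPKM in SCNT and 304.7 and 348.4 FPKM in IVF for 7 genes of the inner cell mass and epiblast. Krt8 and Krt18 made up most of the trophectoderm sum. Over all tested genes, 18.3% had groups that did not overlap with SCNT higher, and 7.09% had an unadjusted limma p under 0.05 in either direction. For 3 of the 8 trophectoderm genes the groups did not overlap, with SCNT higher and an unadjusted p under 0.05, while 0 were called with limma. These were Cdx2 (log2 difference 0.63 ± 0.19), Eomes (0.95 ± 0.32) and Elf5 (1.63 ± 0.32), transcription factors of the trophectoderm lineage (limma adjusted p = 0.538, 0.602 and 0.3201). Of 7 fibroblast markers, 5 were under 1 FPKM in every library, as were all 6 cumulus cell markers, and their summed levels were at most 6.08 and 0.161 FPKM. Of 6 oocyte markers 4 were under 1 FPKM in every library. Xist had 4.13 and 3.33 FPKM in SCNT, against 1.09 and 13.9 FPKM in IVF; the sources used here do not say which stretch the knockout removes, so its level checks no label.

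Mir290, the first hairpin of the cluster, was listed at 0 in both SCNT libraries, against 73.4 and 67.3 FPKM in IVF libraries 1 and 2. The groups did not overlap, and the IVF libraries were close to each other. On the log2(FPKM + 1) scale the difference, SCNT minus IVF, was -6.16 ± 0.17 (SE, n = 2 libraries per group; limma, Benjamini-Hochberg adjusted p = 0.000428 over 11039 tested genes). The size of that difference is set by the added 1 FPKM, since 1 group is listed at 0, and no fold is given. Both SCNT values are 0 and add no spread, so the SE and p rest on the spread of the 2 IVF values and on limma's prior variance. The spread of a row listed at 0 is not measured. Over the 11039 tested genes 0.0544% were called lower and 0.0725% higher in SCNT, and the groups were separated in that direction, lower in SCNT, for 15.1% of genes. Mir290 passed the filter of a mean of 1 FPKM through the IVF libraries alone, so that passing the filter already required a difference, and no alternative setting could turn its direction.

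Among the other microRNA genes of 82 to 84 bases with a value of at least 1 FPKM, 17 in all, the lowest such value per gene had a median of 63.9 FPKM, and the 10 of these genes that were above 1 FPKM in exactly 1 library had a median of 64.9 FPKM. Mir290 at 73.4 and 67.3 FPKM was close to both. For shorter genes the median of the lowest values was 254 FPKM at 65 to 70 bases (5 genes) and 142 FPKM at 71 to 76 bases (14 genes). The windows of length were chosen after the values were seen. The files give no fragment counts, so the counting error of the Mir290 difference is unknown and its part in the result was not tested.

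**Figure D2:**
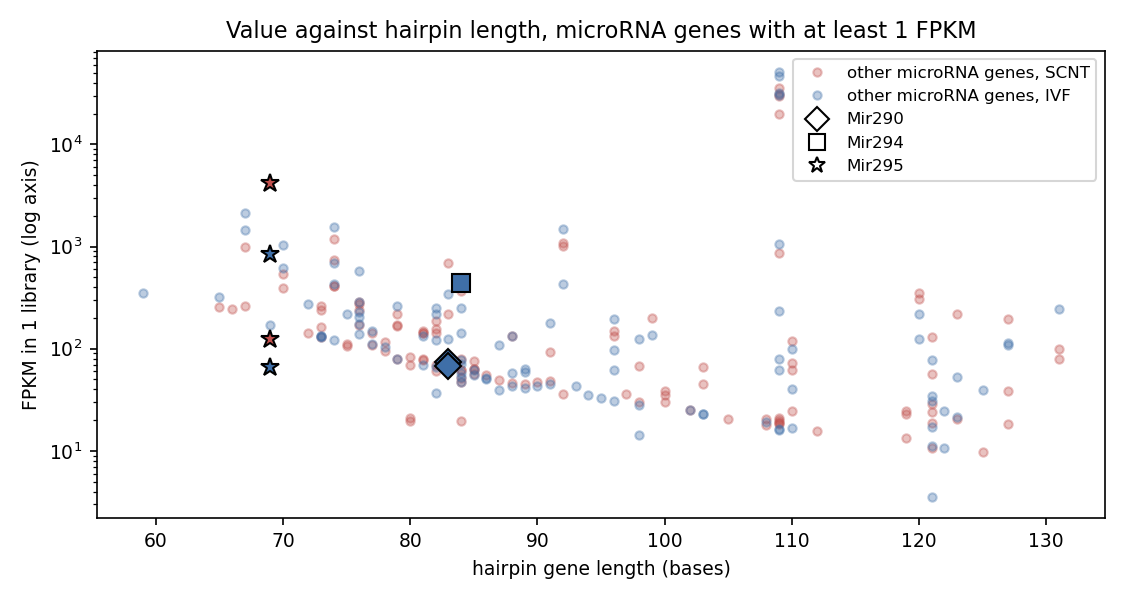
FPKM in 1 library (log axis) against the length of the hairpin gene in bases, for every microRNA gene and library with at least 1 FPKM; circles are genes outside the cluster and filled symbols with a black edge are members. The circles have a sloping lower edge, near which both Mir290 points lie, while Mir295 in IVF 1 lies below the other genes of like length and Mir295 in SCNT 1 far above the edge.

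Other microRNA genes showed the same kind of difference in both directions. Of 123 tested microRNA genes, 3 were called lower in SCNT (2.44%, against 0.0544% of all tested genes) and 5 higher (4.07%). Mir290 was 1 of the 3, beside Mir181a-2 and Mir690, and each of these 8 genes was at 0 in both libraries of either SCNT or IVF. Mir4660, with 84 bases, was the mirror image of Mir290, listed at 62.3 FPKM in both SCNT libraries and at 0 in both IVF libraries (log2 difference 5.98, limma adjusted p = 0.000428). Of the 607 microRNA genes outside the cluster, 480 were listed at 0 in all 4 libraries, 60 were above 0 in exactly 1 library and 26 in all 4; 5 were above 0 in both IVF and neither SCNT library and 6 in both SCNT and neither IVF library. A value at or below 1e-06 FPKM counts as 0 throughout.

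Mir295, the last hairpin, had the highest values of the cluster and did not differ between the groups beyond its spread. It was listed at 4226 and 124 FPKM in SCNT libraries 1 and 2, against 66.6 and 853 FPKM in IVF libraries 1 and 2. The highest and the second lowest value were both SCNT libraries, so the groups overlapped. The log2 difference was 1.60 ± 1.97 (SE; limma adjusted p = 0.9996), and it turned to -0.23 without IVF library 1 and to -0.94 without SCNT library 1. The libraries of a group differed 34.0-fold in SCNT and 12.8-fold in IVF. Among the other microRNA genes with at least 1 FPKM in both libraries of a group, the corresponding ratio had a median of 1.64 in SCNT (33 genes, highest 10.7) and 2.01 in IVF (25 genes, highest 8.69). That minimum leaves out genes that were near 0 in 1 library of a group, such as Mir686, with 0.0782 and 858 FPKM in SCNT, and Mir5121, with 427 and 0 FPKM in IVF, both named after their values were seen. By mean FPKM Mir295 ranked 3 among the 614 microRNA genes in the files.

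Mir294, which carries the same 3′ seed as Mir295 and is separated from it by 48 bases, was high in a single library. It was listed at 0.00137 and 0.0581 FPKM in SCNT libraries 1 and 2, against 443 and 0.0104 FPKM in IVF libraries 1 and 2. IVF library 2 lay between the SCNT libraries, and only IVF library 1 stood apart. The log2 difference was -4.36 ± 2.75 (SE; limma adjusted p = 0.898). Without IVF library 1 it turned to 0.03, and without IVF library 2 it was -8.75 and passed the threshold (adjusted p = 0.00139), with the lone IVF library assumed to vary like those of SCNT. In IVF library 1, where Mir294 was high, Mir295 had its lowest value, and in the other 3 libraries Mir295 made up at least 92.7% of the summed FPKM of the cluster.

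The 4 inner members were not detected at a level that can be compared. Mir291a was listed at exactly 0 in SCNT library 1 and in both IVF libraries and at 1.26e-92 FPKM in SCNT library 2. Mir291b and Mir292 had values between 1.65e-14 and 3.68e-115 FPKM in all 4 libraries, and Mir293 had 1.97e-06 and 4.11e-25 FPKM in SCNT and 1.53e-13 and 0.000129 FPKM in IVF. None of the 4 reached the filter, so 3 of the 7 members were tested and 1, Mir290, was called. Over all tested genes 0.127% were called, and of 123 tested microRNA genes 2.44% were called lower and 4.07% higher in SCNT. Values above 0 but at or below 1e-06 FPKM occurred for 36 to 60 genes per library and for 98 genes in all. Of these 98 genes, 4 were members, 8 were other microRNA genes and 35 were protocadherin genes, which share exons. All 8 of those other microRNA genes overlap another gene with a row, as do all 7 members and 394 of the 598 microRNA genes outside the cluster that the reference places.

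The summed cluster showed no difference larger than the spread between libraries. The sum over the 7 members was 4226 and 124 FPKM in SCNT, against 583 and 920 FPKM in IVF. The SCNT libraries enclosed the IVF libraries, and the log2 difference of the sums was -0.01 (exact permutation test, 2-sided, p = 1; the smallest p that 2 against 2 libraries allow is 0.333). It was 2.53 without SCNT library 2, -2.55 without SCNT library 1, 0.32 without IVF library 2 and -0.34 without IVF library 1. Without Mir295 the difference was -7.51 (exact permutation p = 0.333), which is then the difference of Mir290 and Mir294. The cluster held 0.442% and 0.0127% of all FPKM in SCNT and 0.0624% and 0.0934% in IVF.

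**Figure D3:**
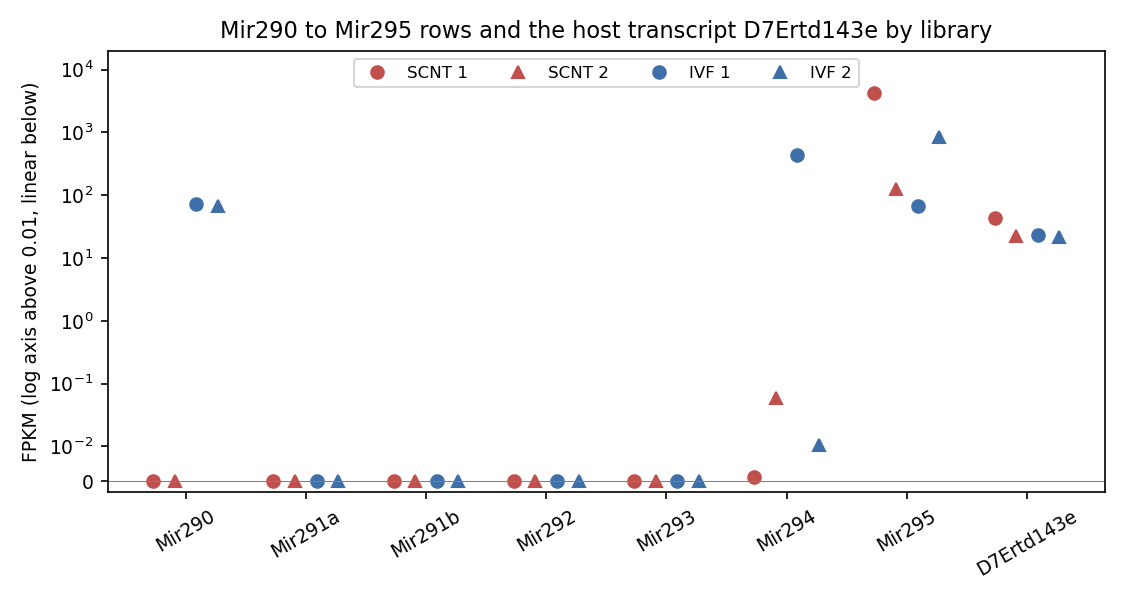
FPKM of the 7 members and of D7Ertd143e in each library, with SCNT in red left of IVF in blue, circles for libraries 1 and triangles for libraries 2; the axis is logarithmic above 0.01 FPKM and linear below. Mir290 is at 0 in both SCNT libraries, Mir294 is high in IVF 1 alone, Mir295 ranges from 66.6 to 4226 FPKM with the groups mixed, and D7Ertd143e lies between 21.8 and 43.8 FPKM.

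The host transcript D7Ertd143e varied less between libraries than Mir295 did and did not differ between the groups past the threshold. It was listed at 43.8 and 22.5 FPKM in SCNT libraries 1 and 2, against 23.5 and 21.8 FPKM in IVF libraries 1 and 2. SCNT library 1, where Mir295 was also highest, stood above the other 3 libraries, and SCNT library 2 lay between the IVF libraries. The log2 difference was 0.46 ± 0.34 (SE; limma adjusted p = 0.949), and without SCNT library 1 it was -0.01. The ratio between libraries was 1.95 in SCNT and 1.08 in IVF. Library SCNT 1 also had the highest summed trophectoderm markers. Its sum of the 7 markers of fibroblasts, the donor cell type, was the highest too, at 6.08 FPKM in SCNT library 1 and 1.26 FPKM in SCNT library 2, against 3.39 and 1.73 FPKM in IVF, with Twist2 at 0 in every library. Col1a1 held 3.38 FPKM of that highest sum, and Col1a2 and Col3a1 were also highest in SCNT library 1. Thy1 and Twist1 were highest in IVF library 1 instead, at 0.578 and 1.57 FPKM, against 0.374 and 0.521 FPKM in SCNT library 1. Pdgfrb was highest in SCNT library 2. The part of trophectoderm or of fibroblast cells in the level of D7Ertd143e was not tested. In pooled embryos fewer cells of a type and less RNA per cell cannot be told apart.

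Of the 13 genes beside the cluster that are reported here, which overlap it or are among the nearest on either side in the reference, 6 had a row. Of these, 3 were tested, D7Ertd143e among them. With limma 0 were called and 1, Myadm, had an unadjusted p under 0.05, against 0.127% and 7.09% of all tested genes. Myadm, which encodes a membrane protein, had 38.3 and 32.7 FPKM in SCNT, against 26.5 and 23.3 FPKM in IVF (log2 difference 0.49 ± 0.19, limma adjusted p = 0.674). AU018091 had 54.9 and 47.4 FPKM in SCNT, against 43.5 and 38.5 FPKM in IVF (0.31 ± 0.18, adjusted p = 0.898). The groups did not overlap for these 2 genes, a separation in that direction seen in 18.3% of all tested genes. The other 3 were too low to test. Nlrp12 had 0.217 and 0.426 FPKM in SCNT, against 0.125 and 0.213 FPKM in IVF, and the pseudogene Speer9-ps1 had 0.179 and 0.655 FPKM in SCNT, against 0.0933 and 0.0791 FPKM in IVF. Cacng7, a gene of the calcium channel gamma subunit family, was at 0 in both SCNT libraries, against 0.109 and 0 FPKM in IVF.

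The machinery that makes and uses microRNAs did not differ past the threshold in any gene. Of 22 listed genes all had a row, 19 were tested, and 0 were called with limma or had an unadjusted p under 0.05; over all tested genes 0.127% were called and 7.09% had an unadjusted p under 0.05. The median log2 difference was -0.07, beside 0.01 over all tested genes. Drosha, which cuts the hairpin from the primary transcript, had 19.2 and 12.1 FPKM in SCNT, against 20.2 and 12.7 FPKM in IVF (-0.07 ± 0.32). Dgcr8, its RNA-binding partner, had 9.16 and 8.06 FPKM in SCNT, against 9.53 and 8.91 FPKM in IVF. Dicer1 had 4.98 and 3.63 FPKM in SCNT, against 5.21 and 3.37 FPKM in IVF. In these 3 genes, which were added after their values were seen, the groups overlapped. Over the 19 tested genes of the list, the groups did not overlap for 6 with SCNT lower and for 2 with SCNT higher, against 15.1% and 18.3% of all tested genes. The Argonaute genes Ago2 and Ago4, in the files as Eif2c2 and Eif2c4, had the smallest unadjusted p of the list. Ago2, the Argonaute that can cut its target, had 5.70 and 5.59 FPKM in SCNT, against 8.92 and 7.29 FPKM in IVF (-0.45 ± 0.18, limma adjusted p = 0.744). Ago4 differed by -0.32 ± 0.19 and Xpo5, which exports hairpins from the nucleus, by 0.25 ± 0.17 (adjusted p = 0.898 and 0.920). Zcchc11, a uridylyl transferase that acts with Lin28a on let-7 precursors, differed by -0.25 ± 0.23.

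Transcription factors reported at the promoter of the cluster in embryonic stem cells did not differ past the threshold either. All 6 were tested, 0 were called with limma and 0 had an unadjusted p under 0.05, against 0.127% and 7.09% of all tested genes. With 6 genes, counts of 0 say little at such shares. The median log2 difference was 0.02, beside 0.01 over all tested genes. Pou5f1, the pluripotency factor Oct4, had 120.3 and 153.6 FPKM in SCNT, against 112.2 and 128.3 FPKM in IVF. Nanog had 104 and 136 FPKM in SCNT, against 107 and 156 FPKM in IVF, and for both genes the groups overlapped. Mycn differed by 0.24 ± 0.22 and Myc by 0.09 ± 0.26.

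Reported targets of the cluster lay on both sides of 0. Of 13 genes reported as targets of the cluster in mouse embryonic stem cells or of its human relatives, 10 were tested. Of these, 0 were called with limma and 1 had an unadjusted p under 0.05, against 0.127% and 7.09% of all tested genes. The median log2 difference was -0.06, beside 0.01 over all tested genes. Cdkn1a, the inhibitor p21 of cyclin-dependent kinases and a target of p53 as well, had 33.9 and 64.6 FPKM in SCNT, against 78.9 and 110 FPKM in IVF (-0.98 ± 0.36, limma adjusted p = 0.664). Lats2, a kinase of the Hippo pathway, had 4.67 and 5.12 FPKM in SCNT, against 3.60 and 3.32 FPKM in IVF (0.40 ± 0.17, adjusted p = 0.772). The groups did not overlap for 3 of the tested genes of the list with SCNT higher and for 2 with SCNT lower, against 18.3% and 15.1% of all tested genes. Wee1, a kinase that holds back mitosis, differed by -0.26 ± 0.17, and Rhoc, a small GTPase, by 0.23 ± 0.18 (adjusted p = 0.901 and 0.964). Rbl2, Irf2 and Tgfbr2 did not reach the filter, and Tgfbr2, a receptor of TGF-beta, had 1.16 and 1.45 FPKM in SCNT, against 0.383 and 0.544 FPKM in IVF.

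The first seed matches in the 3′ UTRs of these targets are shown because their letters pair with the seed of Mir291a, Mir294 and Mir295. Whether the cluster acts through these matches was not tested. The matches are read from GENCODE vM21 transcripts on GRCm38, with the 7 bases that pair with the seed AAGUGCU in capitals.
Cdkn1a: cagacctgaatAGCACTTtggaaaaatga
Lats2: agtatggaaagAGCACTTattttgtggat
Wee1: atccaactgggAGCACTTtaggcatcgtg
Rhoc: tattacacaccAGCACTTtatatattttt
Tgfbr2: gggatagcgttAGCACTTgacaatcagtc
The match in Cdkn1a starts at base 435 of a UTR of 1334 bases. Of the 13 genes, 12 held at least 1 AGCACTT, against 16.6% of tested genes with an annotated UTR; the list was drawn from reported targets, so this share describes the list. The 13th, Dkk1, a Wnt inhibitor, held no AGCACTT. Its 1 match to the 6 bases GCACTT follows a G and so reads GGCACTT, the match to the Mir290 seed AAGUGCC. Dkk1 had 4.33 and 7.64 FPKM in SCNT and 4.01 and 6.84 FPKM in IVF.

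Over all genes, medians of genes with and without a seed match were close. A 3′ UTR was found for 10255 of the 11039 tested genes. The 1700 genes with at least 1 AGCACTT had a median log2 difference of -0.0091 and the 8555 without it a median of 0.0201. With 1 match the median was -0.0078 (1385 genes) and with 2 or more -0.0160 (315 genes). For GGCACTT, the match to the Mir290 seed, the medians were -0.0166 with (918 genes) and 0.0181 without. The match to let-7, CTACCTC, which the cluster does not carry, gave -0.0066 with (1030 genes) and 0.0164 without. Genes with a match also had longer UTRs, with a median of 2402 bases for AGCACTT against 863 without it, and were less abundant (median of the mean 7.0 against 11.5 FPKM); the part of these in the medians was not tested. These medians are descriptions, added after the other results were seen.

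**Figure D4:**
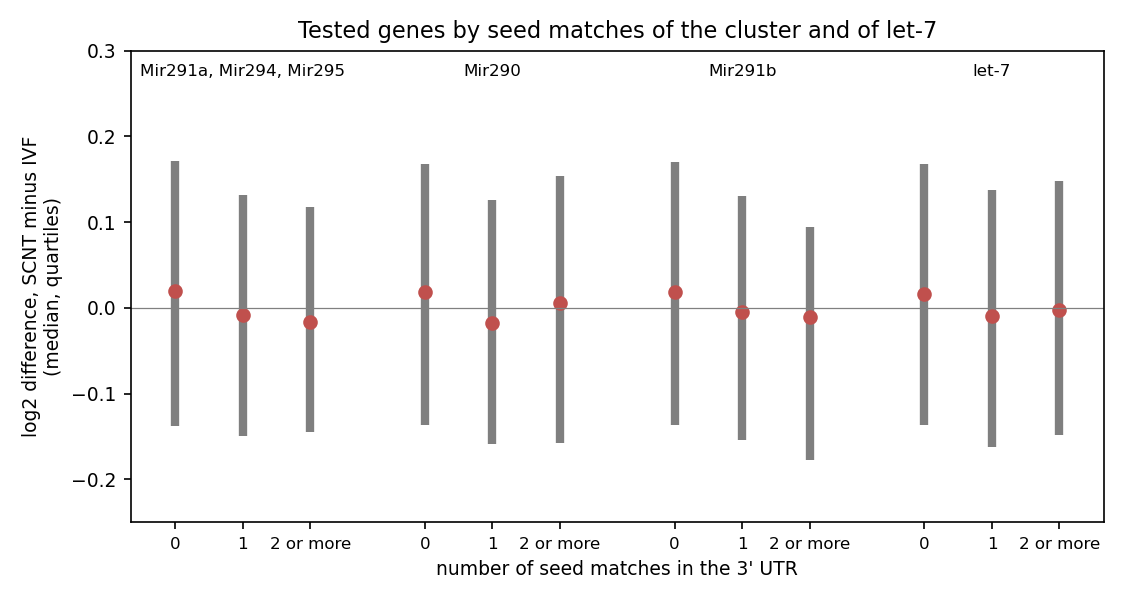
Log2 difference, SCNT minus IVF, of tested genes grouped by the number of seed matches in the 3′ UTR, for 3 seeds of the cluster and for let-7; points are medians and bars run between the quartiles. The medians lie between -0.0173 and 0.0201 in all 12 groups, and the bars overlap.

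Rbl2 is known to lower DNA methyltransferases in Dicer1-deficient mouse embryonic stem cells, which lack the cluster's products. Of these enzymes 4 were listed and tested and 0 were called with limma or had an unadjusted p under 0.05, against 0.127% and 7.09% of all tested genes. Dnmt3b, which sets methylation in the early embryo, had 71.1 and 54.5 FPKM in SCNT, against 75.9 and 52.7 FPKM in IVF. Dnmt3l, its cofactor, had 78.7 and 63.1 FPKM in SCNT, against 73.4 and 61.5 FPKM in IVF. Dnmt3a differed by 0.12 ± 0.22 and Dnmt1, which copies methylation at replication, by 0.20 ± 0.16.

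**Figure D5:**
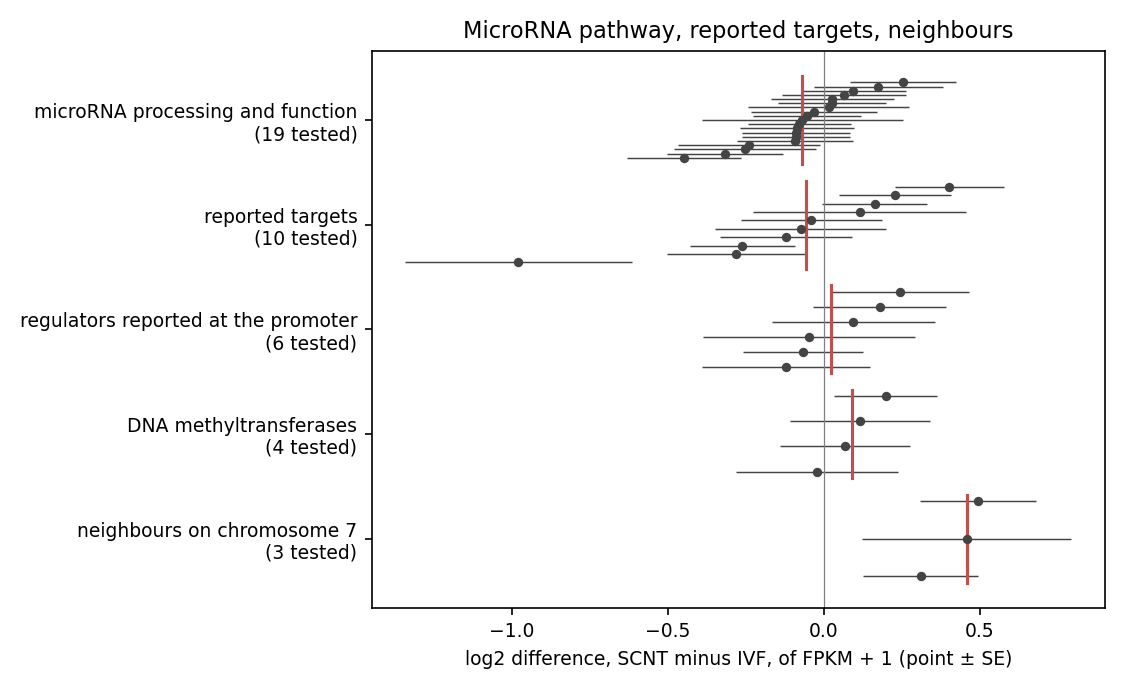
Log2 difference, SCNT minus IVF, of FPKM + 1 for each tested gene of 5 lists, as points with bars of 1 SE; the red line is the median of the list. The medians are -0.07, -0.06, 0.02, 0.09 and 0.46 from top to bottom, and Cdkn1a is the leftmost point at -0.98.

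Other microRNA clusters of pluripotent cells held rows at 0 and rows above 0. Among the 607 microRNA genes outside the Mir290 to Mir295 cluster, 127 were above 0 in at least 1 library. Of 5 rows of the Mir302 cluster, some of whose microRNAs share the seed of Mir294, 4 were above 0 in any library and none in both libraries of SCNT or of IVF. Mir302d had 0 and 242 FPKM in SCNT, against 0 FPKM in IVF libraries 1 and 2. Mir302a was at 0 in both SCNT libraries, against 0 and 169 FPKM in IVF, and Mir302b was at 0 in both SCNT libraries, against 120 and 0 FPKM in IVF. Mir367 had 0 and 111 FPKM in SCNT, against 0 and 219 FPKM in IVF. The values above 0 came from 1 library for each of Mir302a, Mir302b and Mir302d and from 2 for Mir367. Of 15 rows of the Mir17 family clusters, 5 were above 0, and Mir25 alone was above 0 in all 4 libraries, at 79.7 and 363 FPKM in SCNT and at 249 and 141 FPKM in IVF (log2 difference -0.14 ± 0.75). None of these genes was called with limma (adjusted p of 0.898 to 0.9996), and none had an unadjusted p under 0.05. Of 19 let-7 and fibroblast microRNA rows 5 were above 0 and 4 were tested, and 0 were called with limma. Only Mirlet7d had an unadjusted p under 0.05, against 7.09% of all tested genes. It had 66.4 and 45.3 FPKM in SCNT, against 22.9 and 22.8 FPKM in IVF (1.23 ± 0.24, limma adjusted p = 0.320). Mirlet7e, Mirlet7a-1 and Mirlet7a-2 went the other way, each above 0 in a single IVF library (-2.74 ± 1.7, -2.58 ± 1.6 and -2.49 ± 1.6).

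By the distance between centred log2(FPKM + 1) profiles over the 4 libraries, the genes most like the summed cluster were Mir546 (distance 1.49), Snora15 (1.5), Snord52 (1.68), Snora69 (1.96) and Snora52 (2.13), all short RNA genes. Snord52 had 4233 and 642 FPKM in SCNT and 1489 and 1893 FPKM in IVF. The measure rests on 4 libraries and is given as a description.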

How the data were processed

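The files deposited by the authors hold 1 value per gene for 23235 genes in each of 4 libraries. Per the file headers a column has a gene name and a library name, so the unit, FPKM as deposited by the authors, is inferred from the values and from Cufflinks (2.2.1), which the submitters' processing notes list beside TopHat2 (2.0.14), Bowtie2 (2.1.0) and the build mm9. The sources used here give no annotation, strand setting, filter or scaling. FPKM of genes shorter than a sequenced fragment is unstable, and overlapping genes share fragments.

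Genes with a mean of at least 1 FPKM over the 4 libraries (11039) were tested on log2(FPKM + 1) by limma (version 3.58.1, R version 4.3.3). Its only term was the group and its prior followed the mean-variance trend, with Benjamini-Hochberg adjustment over all tested genes at 0.05. Adjusted p-values are from that fit. The procedure was tested on simulated data with normal noise on the log scale. Fragment counts of short genes were not simulated, so the calls of microRNA genes at 0 in 1 group were not tested by it. Values at or below 1e-06 counted as 0. The number of libraries limits the precision, and depth is unknown. Members, lists and tests were chosen with earlier results of these data known. Named genes are the members, the called or up to 4 lowest-p genes of each list, the neighbours (1 of them is not reported here and was left out of that list) and the 5 genes of most similar profile; Drosha, Dgcr8, Dicer1, Tgfbr2, Dkk1, Mir181a-2, Mir690, Mir686, Mir5121, Cdx2, Eomes, Elf5, Krt8, Krt18, Twist2, Xist and Sfmbt2 were added after their values were seen. Sequences are from RefSeq tables (GRCm38.p6) and GENCODE vM21, builds other than that of the files, whose coordinates are not used with them. Alternatives covered the pseudocount, the filter, scaling, the prior, the replicate block and each library left out.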

Additional observations from a re-analysis of the deposited data

How the results depend on the processing

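Of 11039 tested genes 14 were called, 8 higher and 6 lower in SCNT. Leaving out 1 library gave 36 to 43 called genes, 13 to 31 higher and 11 to 30 lower; the robust prior gave 12 lower. Testing without short RNA genes, a setting added once the data had been seen, gave 6 called genes, 2 of them higher, and members are then not tested. Mir290 is at 0 in both SCNT libraries, so no alternative could turn its direction; its difference was -3.91 at a pseudocount of 5 FPKM and -9.46 at 0.1 FPKM, and its adjusted p lay between 8.11e-05 and 0.00652. Leaving out 1 library gave -8.75 to 0.03 (0.0269) for Mir294, which was called as lower without IVF library 2, -0.94 to 4.14 for Mir295, -0.01 (-0.00689) to 0.92 for D7Ertd143e and -2.55 to 2.53 for the summed cluster; the signs turned as given beside each result, and the cause was not tested. With the 8-base match, the 6-base match or a mean of at least 5 FPKM, also added later, the median of genes with a seed match stayed below 0. Summed without Mir295 the cluster differed by -7.51. The other alternatives for Mir294, Mir295 and D7Ertd143e changed neither direction nor call.

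The replicate numbers of the titles do not say what they pair. Across 11039 genes the deviations of same-numbered libraries from their group means had a correlation of 0.31. With the replicate block 20 genes were called, 12 higher and 8 lower, and no call of a member changed: the adjusted p was 0.00136 for Mir290, 0.405 for Mir294, 0.752 for Mir295 and 0.404 for D7Ertd143e. For the summed cluster SCNT minus IVF was 2.86 between libraries 1 and -2.88 between libraries 2. Depth is unknown, so a row at 0 cannot be told from one below detection.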

Other observations

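Rows of the microRNA family that lies in an intron of Sfmbt2 on chromosome 2 were mostly at 0, as were microRNA genes outside the Mir290 to Mir295 cluster. Of those 607 genes, 480 were at 0 in all 4 libraries and 127 were above 0 in at least 1. Of 39 rows whose names start with Mir297, Mir466, Mir467 or Mir669, 36 were placed on chromosome 2, and 11 of these 36 were above 0 in any library. Sfmbt2 itself, a Polycomb-group gene, had 38.0 and 42.6 FPKM in SCNT, against 15.2 and 25.8 FPKM in IVF (log2 difference 0.98, limma adjusted p = 0.519). The only row of the list that was called is Mir4660, which the name pattern picked up and which is described above.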
